A study of Mus musculus with 15 samples.

Results

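The 10 integrin subunit genes described here were Itgav, Itgb5, Itga5, Itgb1, Itga6, Itga4, Itgam, Itgax, Itgal and Itgb2, and every probe annotated to them was taken, 24 of the 45281 probes on the array, for 10 of the 19057 genes it names. They were followed in mouse microglia grown from C57BL/6 embryonic stem cells and kept in serum-free N2 medium, as 4 groups that share this origin and medium. Untreated cells gave 6 arrays. Cells given IL-4 at 100 U/ml, LPS at 500 ng/ml together with IFN-γ at 20 ng/ml (LPS/IFN-γ below), or TGF-β at 50 ng/ml for 24 h gave 3 arrays each. The labels give a chip and position for each array and name no separate cultures. The p-values thus measure the spread between arrays, which may be technical. Replicate numbers below follow the order in which the arrays of a group are listed.

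Integrins are cell surface receptors made of an α and a β subunit, and the pairing sets which ligand is bound. The αV subunit pairs with several β subunits, β5 among them, to bind vitronectin, fibronectin and other proteins with an RGD motif, and some αV integrins release active TGF-β from its latent complex. The α5 subunit pairs with β1 as the classical fibronectin receptor, α6 with β1 or β4 as a laminin receptor, and α4 with β1 or β7 to bind VCAM-1, fibronectin or MAdCAM-1. The β2 subunit, found on leukocytes, pairs with αL (Itgal), αM (Itgam) or αX (Itgax), which bind ICAMs or the complement fragment iC3b. The αM chain, also known as CD11b, is a standard surface marker of microglia.

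On GRCm38.p6 (RefSeq), Itgam (chr7:128062640-128118491), Itgax (chr7:128129526-128150657) and Itgal (chr7:127296139-127335137) lie on chromosome 7. Itga4 (chr2:79255426-79333114), Itgav (chr2:83722303-83806917) and Itga6 (chr2:71786886-71858427) lie on chromosome 2. The others are on separate chromosomes: Itga5 at chr15:103344286-103366791, Itgb5 at chr16:33829665-33949338, Itgb1 at chr8:128685654-128733579 and Itgb2 at chr10:77530329-77565708. The Itgav start used for its promoter lies inside the gene's annotated span.

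Of the 24 probes, 14 passed the filter for signal above background (3 or more of 15 arrays with a detection p below 0.01) and stood for 9 of the 10 genes. The remaining 10 probes were above background on 0 arrays: all 3 Itga6 probes, 5 of the 6 Itga4 probes and 2 of the 5 Itgav probes. Raw signals of the Itga6 probes ran from 119.9 to 165.1, so no level can be given for this laminin receptor subunit. Signals below are background-corrected, quantile-normalised log2 values, and a probe's level is not set against that of another probe. A probe was called changed at a Benjamini-Hochberg adjusted p under 0.05 over all 15434 probes tested.

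Per array, 13601 to 14789 probes were above background. Arrays of a group correlated at 0.983 to 0.996. LPS/IFN-γ replicate 3 stood apart, with 296 probes more than 2-fold off the rest of its group against 2 to 94 on the others, and results that rest on it are given without it. Each of the 3 bead chips held every group, with 1 to 3 of its arrays untreated. The microglial and macrophage markers Aif1, Csf1r, Trem2, Spi1, Ptprc, Adgre1, Sall1 and Mertk were above background on all 15 arrays, whereas P2ry12, Fcrls and Siglech were on 0 arrays, and Cx3cr1 and Tmem119 on 3 each, all TGF-β arrays. The summed linear signal of the 13 such markers on the array ran from 11590 to 12226 in untreated cells, from 13424 to 16299 under IL-4, from 12434 to 14405 under LPS/IFN-γ and from 16661 to 17912 under TGF-β. Of 7 endothelial markers only Vwf was detected, and the list's summed signal ran from 853 to 878 under TGF-β, from 383 to 413 in untreated cells, from 376 to 401 under IL-4 and from 284 to 343 under LPS/IFN-γ. Pecam1, Cdh5, Kdr, Tek, Cldn5 and Esam were at 0 arrays. Of 8 astrocyte markers Slc1a2 was detected on 15 arrays and Aldh1l1 on 9, of 7 oligodendrocyte markers Cnp on 15, and of 8 pluripotent cell markers Pou5f1 on 4. Klrb1c, Cxcr2 and Clec9a, of the lymphocyte, neutrophil and dendritic cell lists, were each detected on 1 array. The 8 fibroblast and the 8 neuronal markers were at 0 arrays. The part of these marker shifts in the results below was not tested.

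The promoters of Itgb5, Itgav, Itga5 and Itga4, the members with the widest TGF-β differences, and of Itgb7, which moved with both TGF-β and LPS/IFN-γ, are shown because SMAD proteins carry the TGF-β signal to DNA. Each window runs 5′ to 3′ on the gene's strand from 250 bases before to 50 bases after the annotated start (RefSeq, GRCm38.p6; 7 of the 10 members had an entry). Capitals mark the SMAD box CAGAC, or its reverse complement GTCTG.
Itgb5 (chr16:33829415-33829714, plus strand): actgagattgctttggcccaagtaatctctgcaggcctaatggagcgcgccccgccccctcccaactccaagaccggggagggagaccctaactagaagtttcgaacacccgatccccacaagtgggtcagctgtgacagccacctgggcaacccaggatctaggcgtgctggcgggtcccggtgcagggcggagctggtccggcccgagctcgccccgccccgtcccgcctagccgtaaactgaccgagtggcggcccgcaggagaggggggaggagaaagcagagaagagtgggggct
Itgav (chr2:83724147-83724446, plus strand): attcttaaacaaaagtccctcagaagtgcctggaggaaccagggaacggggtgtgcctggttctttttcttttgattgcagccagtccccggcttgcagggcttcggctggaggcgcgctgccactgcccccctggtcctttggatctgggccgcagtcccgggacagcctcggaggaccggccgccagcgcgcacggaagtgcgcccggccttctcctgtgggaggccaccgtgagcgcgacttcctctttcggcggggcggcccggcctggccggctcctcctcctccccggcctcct
Itga5 (chr15:103366742-103367041, minus strand): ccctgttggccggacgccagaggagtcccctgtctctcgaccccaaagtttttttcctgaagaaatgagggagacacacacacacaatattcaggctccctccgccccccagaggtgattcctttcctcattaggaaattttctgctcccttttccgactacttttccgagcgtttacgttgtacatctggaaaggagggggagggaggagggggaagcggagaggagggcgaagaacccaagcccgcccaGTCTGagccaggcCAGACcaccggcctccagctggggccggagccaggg
Itga4 (chr2:79255176-79255475, plus strand): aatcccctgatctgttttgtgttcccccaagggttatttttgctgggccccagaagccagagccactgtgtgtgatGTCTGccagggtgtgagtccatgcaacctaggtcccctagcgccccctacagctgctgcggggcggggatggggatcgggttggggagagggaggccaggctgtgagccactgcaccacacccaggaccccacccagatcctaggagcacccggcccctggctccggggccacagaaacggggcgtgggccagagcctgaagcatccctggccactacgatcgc
Itgb7 (chr15:102231886-102232185, minus strand): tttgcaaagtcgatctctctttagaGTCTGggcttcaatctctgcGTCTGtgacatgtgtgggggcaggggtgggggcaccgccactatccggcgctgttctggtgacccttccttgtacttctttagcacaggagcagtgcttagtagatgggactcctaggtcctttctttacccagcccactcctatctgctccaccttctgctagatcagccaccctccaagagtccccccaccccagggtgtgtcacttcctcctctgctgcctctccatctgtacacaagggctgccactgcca

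The SMAD box, searched on both strands, occurred 2 times in the Itga5 and Itgb7 windows, 1 time in the Itga4 window and 0 times in the Itgb5 and Itgav windows, and 49.6% of the 32851 promoter windows of the same length held it. The GC-rich SMAD motif GGCGC was present 2 times for Itgav, 1 time each for Itgb5, Itga4 and Itgb7 and 0 times for Itga5 (36.9% of all windows). The AP-1 site TGANTCA was in none of the 5 windows (7.8% of all windows). The purine box GAGGAA bound by PU.1, the myeloid factor encoded by Spi1, was found 2 times for Itgav, 1 time each for Itga5 and Itgb7 and 0 times for Itgb5 and Itga4 (28.3% of all windows). None of these motifs overlapped the SMAD box. In the windows of Itgb1, Itgam and Itgax, not called with TGF-β against untreated cells, the SMAD box occurred 3, 1 and 1 times. GGCGC occurred 4 times for Itgb1 and 0 times for Itgam and Itgax. The AP-1 site occurred 1 time for Itgax and 0 times for Itgb1 and Itgam. GAGGAA occurred 3 times for Itgam, 1 time for Itgb1 and 0 times for Itgax. These matches describe letters in a window and not sites bound in these cells.

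With TGF-β, Itgb5, Itga5 and Itgav rose and Itga4 and Itgb2 fell, while Itgb1 was not called and Itga6 had no measured level. Against untreated cells, 5 of the 14 probes rose and 2 fell, where 33.5% of all 15434 probes were called, 15.8% higher and 17.7% lower. With LPS/IFN-γ 2 probes of a single gene, Itga5, rose, and 3 probes of Itgb5 and Itgax fell, where 50.9% of all probes were called, 19.9% higher and 31% lower. Leaving out LPS/IFN-γ replicate 1 gave 3 higher and 0 lower, where 47% of all probes were called. With IL-4 0 of 14 probes were called by limma, where 9.41% of all probes were called, 4.61% higher and 4.81% lower. An unadjusted p under 0.05 was found for 3 of the 14 with IL-4, and for 24.7% of all probes. The 3 treatments were compared with the same 6 untreated arrays. All called differences from untreated cells had the same sign in each of the 3 chips. The median log2 difference over the 14 probes was 0.30 with TGF-β, 0.10 with LPS/IFN-γ and 0.11 with IL-4, and over all probes tested it was -0.02, -0.08 and -0.02.

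**Figure D1:**
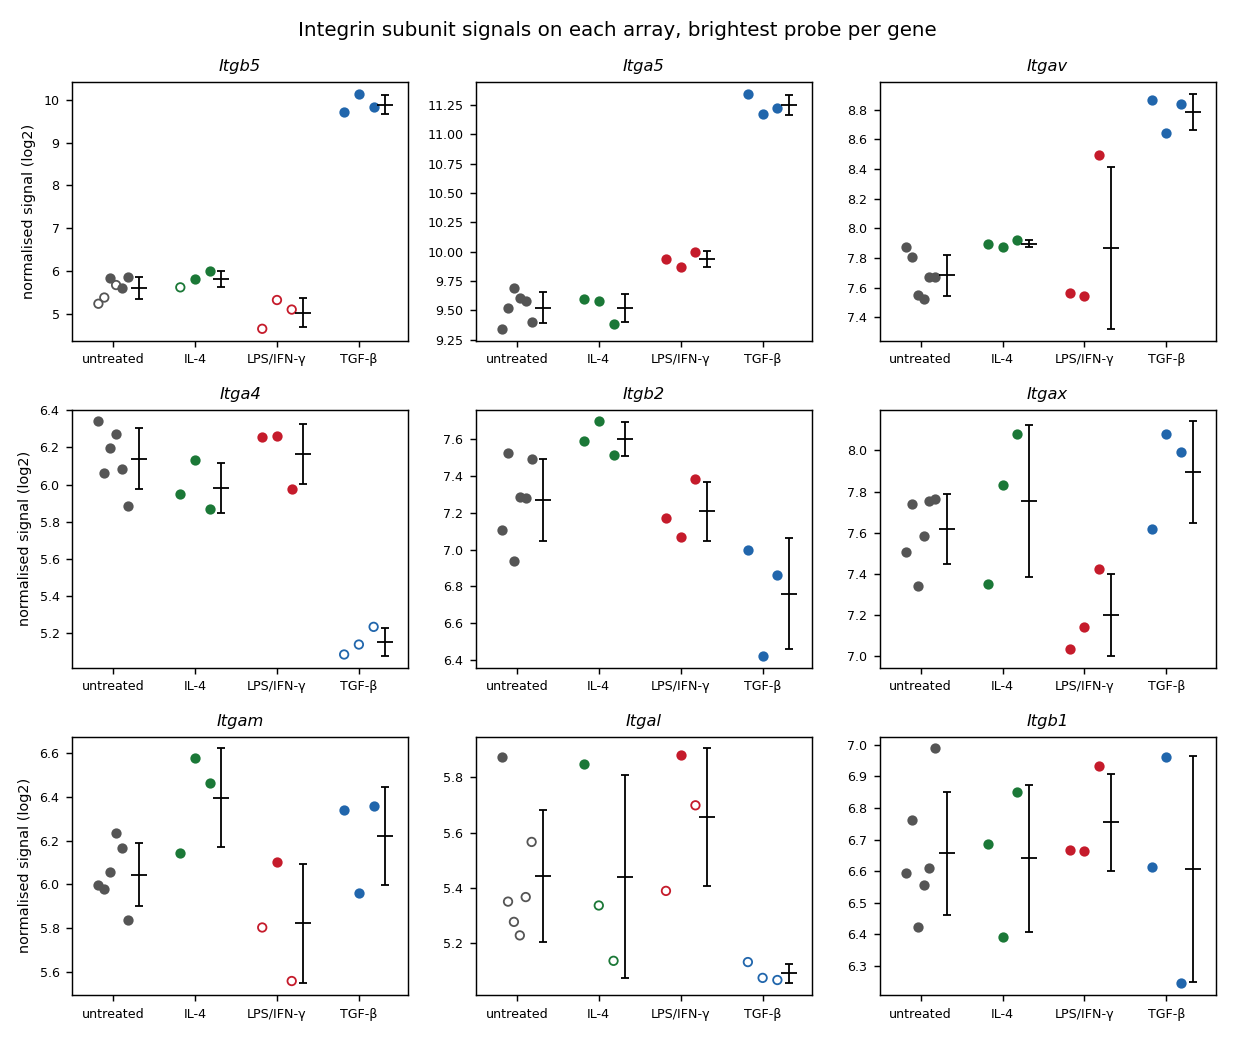
Normalised log2 signal (y axis) of the probe with the highest mean of each of the 9 measured subunit genes, in the 4 groups (x axis). Points are arrays, filled where the probe was above background and open where it was not, and the bar beside each group is the mean ± SD. The TGF-β arrays lie above all others for Itgb5, Itga5 and Itgav and below all others for Itga4.

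**Figure D2:**
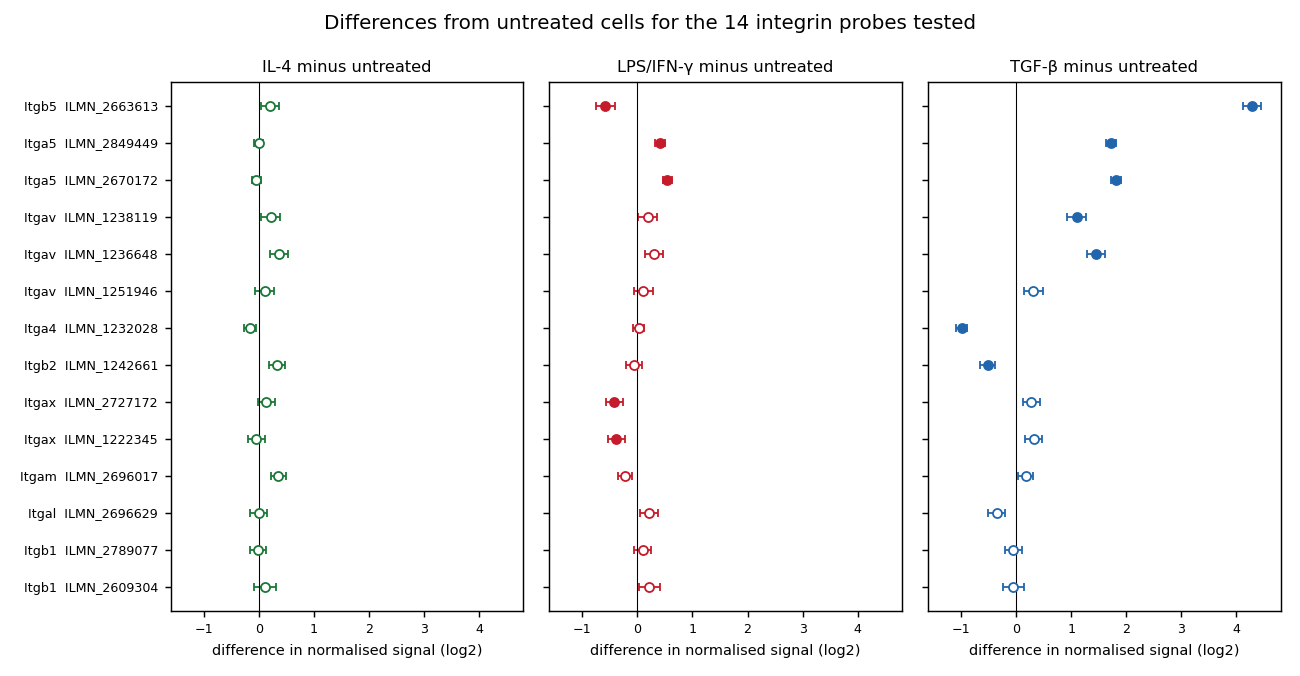
Log2 difference from untreated cells (x axis) of the 14 tested probes (y axis) with IL-4, LPS/IFN-γ and TGF-β, with bars for the standard error and filled points for adjusted p under 0.05. The Itgb5 probe differed most with TGF-β, by 4.29, and no probe was called with IL-4.

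Itgb5, the β5 subunit that pairs with αV, had the widest range of group means of any subunit gene measured here. Its probe read 5.23, 5.38, 5.85, 5.67, 5.61 and 5.87 on the untreated arrays, of which 3 were above background. It read 5.62, 5.80 and 6.00 with IL-4, 4.65, 5.32 and 5.10 with LPS/IFN-γ and 9.71, 10.13 and 9.82 with TGF-β. The TGF-β arrays were far above every other array, while the other groups lay near the limit of detection, with 0 of 3 LPS/IFN-γ arrays above background. The TGF-β difference was 4.29 ± 0.16 on the log2 scale (SE; adjusted p = 9.2e-11), with no fold given because the untreated mean lay at the detection limit, and it was 4.47, 4.50 and 4.08 within the 3 chips. Without background correction it was 2.67. In bulk RNA, a change in the number of expressing cells and a change in RNA per cell cannot be told apart.

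The IL-4 signal of Itgb5, above background on 2 of 3 arrays, minus that with TGF-β was -4.08 on the log2 scale (adjusted p = 7.0e-10), and against LPS/IFN-γ the TGF-β signal was at least 17.3-fold higher (adjusted p = 1.5e-11), a bound set by the lowest signal above background. With LPS/IFN-γ the Itgb5 signal fell by 0.58 ± 0.16 against untreated cells (adjusted p = 0.0088), a difference between values at or under the detection limit for which no fold is given. That call was lost without background correction (-0.18, adjusted p = 0.0611) and without LPS/IFN-γ replicate 1 (-0.39, adjusted p = 0.0727). From the highest to the lowest mean the order was TGF-β, IL-4, untreated and LPS/IFN-γ, and IL-4 and untreated cells did not differ beyond their spread (adjusted p = 0.4791).

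Itgav, the αV partner of β5, rose with TGF-β on 2 of its 3 tested probes. The first probe read 7.88, 7.81, 7.55, 7.52, 7.68 and 7.67 on the untreated arrays, 7.90, 7.88 and 7.92 with IL-4, 7.56, 7.55 and 8.50 with LPS/IFN-γ and 8.87, 8.64 and 8.84 with TGF-β. All TGF-β arrays were above the rest, and LPS/IFN-γ replicate 3 was close to them while its 2 companions sat among the untreated arrays. With TGF-β the signal rose by 1.10 ± 0.16 (2.14-fold, adjusted p = 1.3e-04), and within chips by 0.99, 1.01 and 1.17.

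The second Itgav probe read 7.24, 7.06, 7.09, 7.13, 6.72 and 6.94 in untreated cells, 7.66, 7.38 and 7.14 with IL-4, 6.98, 7.28 and 7.71 with LPS/IFN-γ and 8.47, 8.77 and 8.22 with TGF-β. It rose by 1.46 ± 0.17 with TGF-β (2.75-fold, adjusted p = 1.0e-05). The third probe, above background on 4 of 15 arrays, differed by 0.32 (adjusted p = 0.1737). With LPS/IFN-γ the first probe differed from untreated cells by 0.18 (adjusted p = 0.3720), by -0.31, -0.08 and 0.83 within the chips, and by -0.13 without replicate 3. The second differed by 0.30 (adjusted p = 0.1465). Leaving out LPS/IFN-γ replicate 1 gave 0.47 (adjusted p = 0.0390), while without replicate 3 the difference was 0.10 and not called. Below TGF-β, the group means of the first probe ran IL-4, LPS/IFN-γ, untreated, with no neighbouring groups differing beyond their spread (adjusted p = 0.9143 and 0.3720). Without LPS/IFN-γ replicate 3, its LPS/IFN-γ signal minus that with IL-4 was -0.34 (adjusted p = 0.0205).

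Itga5 encodes α5 of the fibronectin receptor, and both of its probes were above background on all 15 arrays. The first read 9.34, 9.52, 9.69, 9.60, 9.58 and 9.40 in untreated cells, 9.60, 9.58 and 9.39 with IL-4, 9.94, 9.87 and 10.001 with LPS/IFN-γ and 11.34, 11.18 and 11.22 with TGF-β. The LPS/IFN-γ arrays lay above all untreated and IL-4 arrays, and the TGF-β arrays lay above all of these. With TGF-β it rose by 1.72 ± 0.09 (3.30-fold, adjusted p = 1.5e-09) and with LPS/IFN-γ by 0.41 ± 0.09 (1.33-fold, adjusted p = 9.4e-04).

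The second Itga5 probe read 7.81, 8.06, 7.85, 7.99, 7.91 and 8.01 in untreated cells, 7.86, 8.03 and 7.78 with IL-4, 8.36, 8.59 and 8.48 with LPS/IFN-γ and 9.80, 9.67 and 9.78 with TGF-β. It gave the same order, with rises of 1.82 ± 0.08 for TGF-β (adjusted p = 5.1e-10) and 0.54 ± 0.08 for LPS/IFN-γ (adjusted p = 6.5e-05). When arrays were scaled by their median alone, the LPS/IFN-γ call of the first probe was lost (0.33, adjusted p = 0.1209) and that of the second was kept. TGF-β exceeded LPS/IFN-γ by 1.31 on the first probe (adjusted p = 3.7e-08) and by 1.27 on the second (adjusted p = 3.0e-08). Untreated and IL-4 arrays overlapped on both (adjusted p = 0.9881 and 0.7734).

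Itgb1, the β1 chain that α5, α4 and α6 share, was not called in any of the 6 comparisons on either probe. The probe detected on all arrays read 6.60, 6.76, 6.42, 6.55, 6.61 and 6.99 in untreated cells, 6.69, 6.39 and 6.85 with IL-4, 6.67, 6.66 and 6.93 with LPS/IFN-γ and 6.61, 6.96 and 6.24 with TGF-β, so all groups overlapped. Its difference from untreated cells was -0.05 ± 0.15 with TGF-β (adjusted p = 0.8399) and 0.10 ± 0.15 with LPS/IFN-γ (adjusted p = 0.6156). The other probe was above background on 3 arrays and read 4.76 to 6.00.

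Itga4, the α4 chain, went the other way from α5 and αV under TGF-β. Its 1 detected probe read 6.34, 6.06, 6.20, 6.27, 6.08 and 5.88 in untreated cells, 5.95, 6.13 and 5.87 with IL-4, 6.25, 6.26 and 5.98 with LPS/IFN-γ and 5.09, 5.14 and 5.23 with TGF-β. It was above background on all arrays of the first 3 groups and on 0 of 3 TGF-β arrays, whose values lay below all others. The fitted difference for TGF-β was -0.99 ± 0.10 (adjusted p = 4.9e-06), which is at least 1.36-fold lower once the TGF-β arrays are set at the detection limit. Against LPS/IFN-γ the bound was 1.39-fold (adjusted p = 4.9e-06) and against IL-4 it was 1.22-fold (adjusted p = 1.2e-04). Untreated, LPS/IFN-γ and IL-4 cells did not differ beyond their spread. This probe is annotated to a cDNA clone, and the 3 probes annotated to the RefSeq mRNA were above background on 0 arrays, so the result rests on a single probe near the detection limit. Without background correction the difference was -0.31.

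The partner that α4 shares with αE, β7 (Itgb7), was no member of the set but moved in opposite directions under LPS/IFN-γ and TGF-β, a pattern picked out after its values were seen. Its probe, detected on all arrays, read 9.47, 9.55, 9.41, 9.70, 9.49 and 9.64 in untreated cells, 9.57, 9.52 and 9.30 with IL-4, 11.29, 11.29 and 11.01 with LPS/IFN-γ and 8.21, 8.29 and 8.35 with TGF-β. LPS/IFN-γ arrays lay above and TGF-β arrays below all untreated and IL-4 arrays. The signal rose by 1.65 ± 0.09 with LPS/IFN-γ (3.15-fold, adjusted p = 1.0e-09) and fell by 1.26 ± 0.09 with TGF-β (2.40-fold, adjusted p = 1.1e-07). Between these treatments the difference was 7.55-fold (adjusted p = 5.8e-12), and with IL-4 it was -0.08 against untreated cells (adjusted p = 0.6394).

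**Figure D3:**
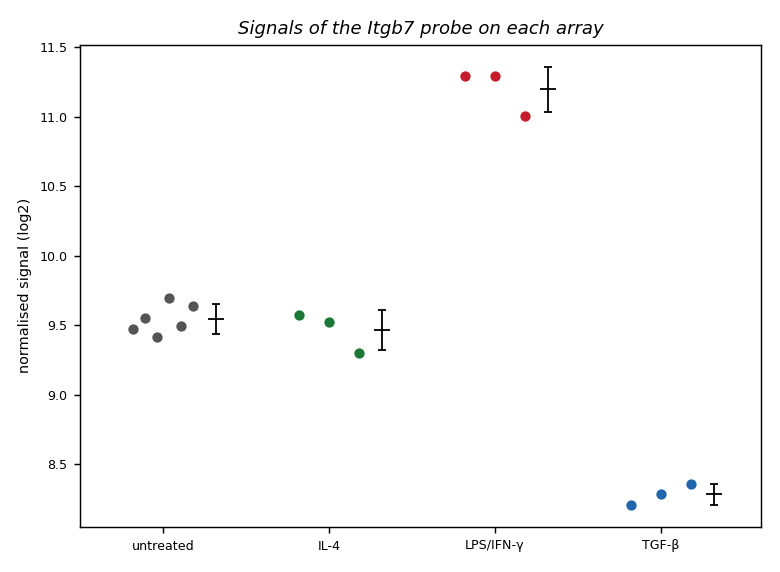
Normalised log2 signal of the Itgb7 probe (y axis) on each array in the 4 groups (x axis), with group mean ± SD beside the points. LPS/IFN-γ arrays read 11.01 to 11.29, TGF-β arrays 8.21 to 8.35, and the other groups 9.30 to 9.70.

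Of 16 integrin subunits on the array outside the set, 13 were above background on 0 arrays. These included Itgb3, Itgb6 and Itgb8, which like β5 pair with αV, and Itgae, the other α partner of β7. The 3 tested were Itgb7, Itga3 and Itga7. Itga3, an α chain of laminin receptors, fell by 0.31 ± 0.11 with LPS/IFN-γ (adjusted p = 0.0291), a call lost under 7 of 27 alternatives. Itga7, also an α chain of laminin receptors, was not called in any comparison, with differences from untreated cells of -0.19 to 0.12.

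Itgb2, the β2 chain on which CD11b and its relatives depend for surface display, was above background on all arrays. It read 7.11, 7.52, 6.94, 7.29, 7.28 and 7.49 in untreated cells, 7.59, 7.70 and 7.52 with IL-4, 7.17, 7.07 and 7.38 with LPS/IFN-γ and 6.998, 6.42 and 6.86 with TGF-β. The IL-4 arrays lay above the LPS/IFN-γ and TGF-β arrays, and TGF-β overlapped the lowest untreated array. With TGF-β the signal fell by 0.51 ± 0.14 (1.42-fold, adjusted p = 0.0109), and the within-chip differences were -0.11, -0.83 and -0.52. That call was lost without TGF-β replicate 2 (-0.34, adjusted p = 0.0890) and with the replicate number as a block (-0.43, adjusted p = 0.1229). Only untreated arrays carry the numbers 4 to 6, so with this block a comparison with untreated cells rests on untreated replicates 1 to 3. IL-4 exceeded TGF-β by 0.84 ± 0.16 (1.79-fold, adjusted p = 0.0013), while its difference from untreated cells was 0.33 ± 0.14 (adjusted p = 0.1568). LPS/IFN-γ exceeded TGF-β by 0.45 (adjusted p = 0.0309), a call lost under 6 of 27 alternatives, and the difference without LPS/IFN-γ replicate 3 was 0.36 (adjusted p = 0.1129). Against IL-4, LPS/IFN-γ was not called, but without that array its difference was -0.48 (adjusted p = 0.0426).

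Itgax, the αX chain CD11c, was above background on all arrays with its first probe. It read 7.51, 7.74, 7.34, 7.59, 7.76 and 7.77 in untreated cells, 7.35, 7.83 and 8.08 with IL-4, 7.04, 7.14 and 7.42 with LPS/IFN-γ and 7.62, 8.08 and 7.99 with TGF-β. The LPS/IFN-γ arrays were the lowest group, with 1 of them above the lowest untreated array. With LPS/IFN-γ the signal fell by 0.41 ± 0.15 (1.33-fold, adjusted p = 0.0352), by 0.47, 0.41 and 0.34 within chips. The call was lost under 8 of 27 alternatives, among them leaving out LPS/IFN-γ replicate 1 (adjusted p = 0.1429) or 2 (adjusted p = 0.0959) or untreated replicate 2, 5 or 6 (adjusted p = 0.0627, 0.0637 and 0.0616), and the replicate block (-0.33, adjusted p = 0.1153). The second probe, above background on 3 of 15 arrays and 0 of 3 LPS/IFN-γ arrays, fell by 0.38 ± 0.15 (adjusted p = 0.0483, lost under 18 of 25 alternatives). For LPS/IFN-γ minus IL-4, this second probe was not called, but it was with the replicate block (-0.34, adjusted p = 0.0385) and without LPS/IFN-γ replicate 3 (-0.50, adjusted p = 0.0376). TGF-β exceeded LPS/IFN-γ by 0.69 ± 0.18 on the first probe (1.62-fold, adjusted p = 0.0043) and IL-4 did by 0.55 ± 0.18 (adjusted p = 0.0192, lost under 6 of 27 alternatives). With TGF-β the difference from untreated cells was 0.28 (adjusted p = 0.1824), and with chip as a block it was 0.32 (adjusted p = 0.0344).

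Itgam, the CD11b chain, read 6.00, 5.98, 6.06, 6.24, 6.17 and 5.84 in untreated cells, 6.14, 6.58 and 6.47 with IL-4, 5.80, 6.10 and 5.56 with LPS/IFN-γ and 6.34, 5.96 and 6.36 with TGF-β. The probe was above background on 13 of 15 arrays, and the 2 arrays below this limit were LPS/IFN-γ replicates 1 and 3. No treatment differed from untreated cells beyond the spread, with 0.35 ± 0.13 for IL-4 (adjusted p = 0.1210), -0.22 ± 0.13 for LPS/IFN-γ (adjusted p = 0.1794) and 0.18 ± 0.13 for TGF-β (adjusted p = 0.3432). Without LPS/IFN-γ replicate 2, the LPS/IFN-γ difference was -0.36 (adjusted p = 0.0463). The IL-4 and LPS/IFN-γ arrays did not overlap, and LPS/IFN-γ was lower by 0.57 ± 0.16 (1.49-fold, adjusted p = 0.0071), or by 0.50 with median scaling (adjusted p = 0.0902). TGF-β exceeded LPS/IFN-γ by 0.40 (adjusted p = 0.0440), a call lost under 19 of 27 alternatives, and the difference of LPS/IFN-γ minus TGF-β without LPS/IFN-γ replicate 3 was -0.27 (adjusted p = 0.1881).

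Itgal, the αL chain of LFA-1, was near background, with its probe detected on 3 of 15 arrays and 0 of 3 TGF-β arrays. It read 5.23 to 5.87 in untreated cells with a median of 5.36, 5.85, 5.34 and 5.14 with IL-4, 5.39, 5.88 and 5.70 with LPS/IFN-γ and 5.13, 5.08 and 5.07 with TGF-β. It was not called against untreated cells. LPS/IFN-γ exceeded TGF-β by 0.56 ± 0.19 (adjusted p = 0.0195, lost under 3 of 26 alternatives, among them the one without LPS/IFN-γ replicate 3, where the difference was 0.54), a difference at the detection limit for which no fold is given.

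Between treatments, LPS/IFN-γ differed from TGF-β on 11 of the 14 probes, 3 higher and 8 lower, where 50% of all probes were called, 22.2% higher and 27.8% lower. It differed from IL-4 on 5, 2 higher and 3 lower, where 45.1% of all probes were called, 19.4% higher and 25.7% lower. IL-4 differed from TGF-β on 7, 2 higher and 5 lower, where 25.4% were called, 12.4% higher and 13% lower. The probes higher with LPS/IFN-γ than with TGF-β were those of Itga4, Itgal and Itgb2, and those lower were of Itgb5, Itga5, Itgav, Itgax and Itgam.

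The genes whose signal followed the members most closely over the 15 arrays were sought among 8321 other genes, as a description in which all genes share the arrays and the groups. For Itgb5 they were Bdh2 (Pearson r = 0.99), Luzp1 (r = 0.99) and Grb10 (r = 0.99). The mean log2 signal of Bdh2, a short-chain dehydrogenase, was 8.60 with TGF-β and 4.77 to 5.27 in the other groups. For Itga5 they were Skil (r = 0.97), Nxf7 (r = 0.97) and Hsd3b7 (r = 0.97). Skil, which encodes the SMAD-binding repressor SnoN, averaged 5.93 in untreated cells, 6.04 with IL-4, 7.55 with LPS/IFN-γ and 10.53 with TGF-β. For Itgav they were Samd8, Egr2 and Prnp (r = 0.94 each).

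Genes that act with integrins were counted by 1 probe per gene, and of all 8561 genes counted so, LPS/IFN-γ raised 20.9% and lowered 33.2%, TGF-β raised 18.8% and lowered 17.9%, and IL-4 raised 4.89% and lowered 5.27%. Ligands came first. Of 24 on the array only 6 were measured, and 18, among them Fn1, Vtn and Vcam1, were not. With LPS/IFN-γ 2 rose and 2 fell. Icam1, the adhesion ligand of αL and αM, went from 10.26 ± 0.08 (SD) to 13.54 ± 0.51, a difference of 3.29 ± 0.15 (adjusted p = 8.7e-11), and Lamc1, a laminin chain, rose by 0.60 ± 0.08 (adjusted p = 2.5e-05). Icam2 fell by 0.55 (adjusted p = 0.0126), a call lost without LPS/IFN-γ replicate 3 (-0.29, adjusted p = 0.1109) and with the replicate block (-0.52, adjusted p = 0.0884), and Icam4 was at least 1.25-fold lower (adjusted p = 0.0019). With TGF-β 0 rose and 2 fell: Icam2 was at least 1.47-fold lower (adjusted p = 6.4e-04) and Icam4 at least 1.32-fold lower (adjusted p = 0.0012), both above background on 0 of 3 TGF-β arrays. With IL-4 0 of the 6 were called by limma, and 1 had an unadjusted p under 0.05, as did 24.7% of all probes. The Lamc1 difference with IL-4 was -0.26 ± 0.08 (adjusted p = 0.0582). Other probes of 2 ligand genes, left out of these counts, gave other calls. The second Lamc1 probe fell by 0.45 with IL-4 (adjusted p = 0.0079) and by 0.34 with TGF-β (adjusted p = 0.0115), and rose by 0.52 with LPS/IFN-γ (adjusted p = 2.9e-04). Another probe of Mfge8, a bridging ligand of αV integrins, rose by 0.42 with IL-4 (adjusted p = 0.0026) and by 0.24 with TGF-β (adjusted p = 0.0196) and fell by 0.22 with LPS/IFN-γ (adjusted p = 0.0239).

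Genes of integrin activation and of the adhesion complex, which link the β tail to actin, numbered 23. With TGF-β 7 rose and 1 fell, and the median log2 difference was 0.16 against 0.00 over all genes. Tln2, a talin, rose by 0.82 ± 0.12 (adjusted p = 7.1e-05) and Actn1, an α-actinin, by 0.71 ± 0.10 (adjusted p = 6.4e-05). Fermt3, the kindlin of blood cells, was lower by 0.47 (adjusted p = 0.0370, lost under 10 of 27 alternatives). With LPS/IFN-γ 5 rose and 9 fell (median -0.12 against -0.08). Vinculin (Vcl) fell by 0.95 ± 0.07 (adjusted p = 5.8e-08) and Tln2 by 0.84 ± 0.12 (adjusted p = 2.6e-05). Zyxin (Zyx) rose by 1.23 ± 0.27 (adjusted p = 0.0015), or by 0.66 without LPS/IFN-γ replicate 3, and paxillin (Pxn) by 0.65 ± 0.15 (adjusted p = 0.0021). With IL-4 2 rose and 0 fell, leupaxin (Lpxn) by 0.85 ± 0.08 (adjusted p = 9.4e-06) and Ilk, the integrin-linked kinase, by 0.40 ± 0.07 (adjusted p = 0.0031), the latter call lost with median scaling (0.31, adjusted p = 0.3250).

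Among 26 signalling kinases and adaptors downstream of integrins, 5 rose and 13 fell with LPS/IFN-γ. Src rose by 1.86 ± 0.10 (adjusted p = 3.9e-10) and Lcp2, the adaptor SLP-76, by 1.63 ± 0.15 (adjusted p = 4.7e-07). Arhgef6, a Rac exchange factor, fell by 0.86 ± 0.09 (adjusted p = 1.3e-06) and Tyrobp, the adaptor DAP12 through which β2 and β3 integrins signal in macrophages, by 0.77 ± 0.09 (adjusted p = 8.4e-06). With TGF-β 8 rose and 5 fell, led by the kinase subunit Pik3cg (0.97 ± 0.11, adjusted p = 9.3e-06) and the phospholipase Plcg2 (0.75 ± 0.06, adjusted p = 6.9e-07). Pik3cd (-0.55 ± 0.10, adjusted p = 4.6e-04) and Rac2 (-0.47 ± 0.10, adjusted p = 0.0015) fell. With IL-4 1 rose, Vav3 by 0.30 (adjusted p = 0.0113), and 1 fell, Ptk2b by 0.36 (adjusted p = 0.0119). Both calls were lost with the replicate block (adjusted p = 0.0946 for Vav3 and 0.1186 for Ptk2b) and with median scaling (0.4196 and 0.1340), and that of Ptk2b also without IL-4 replicate 2 (adjusted p = 0.0518) or 3 (adjusted p = 0.0608). The second Vav3 probe differed by 0.17 with IL-4 (adjusted p = 0.4034). Some other probes, left out of these counts, gave other calls. With IL-4 a second Pik3cg probe fell by 0.36 (adjusted p = 0.0108). One further Arhgef6 probe fell by 0.44 with IL-4 (adjusted p = 0.0494), and another differed by 0.43 (adjusted p = 0.1051). With TGF-β the counted Crk probe rose by 0.31 (adjusted p = 0.0181), while another fell by 0.36 (adjusted p = 0.0081).

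Of 13 membrane partners of integrins, such as tetraspanins and syndecans, 6 rose and 0 fell with TGF-β. They included Cd93, above background on 0 of 6 untreated arrays by its first probe and at least 1.67-fold higher (adjusted p = 2.1e-04), and the tetraspanin Cd9 (0.76 ± 0.08, adjusted p = 8.0e-06). With LPS/IFN-γ 4 rose and 6 fell. The tetraspanin Cd82 rose by 1.13 ± 0.11 (adjusted p = 6.2e-07) and Cd47 by 0.97 ± 0.10 (adjusted p = 2.3e-06), while Cd9 fell by 1.10 ± 0.08 (adjusted p = 4.5e-08) and Cd151 by 0.94 ± 0.08 (adjusted p = 2.0e-07). With IL-4 the syndecan Sdc4 rose by 0.92 ± 0.14 (adjusted p = 9.0e-04) and Cd151 by 0.53 ± 0.08 (adjusted p = 9.7e-04), and Plaur, the urokinase receptor, fell by 0.72 ± 0.16 (adjusted p = 0.0123). The Cd151 call with IL-4 was lost with median scaling (0.45, adjusted p = 0.0926), and that of Plaur with the replicate block (-0.79, adjusted p = 0.0881) and without IL-4 replicate 3 (-0.68, adjusted p = 0.0624). Among probes left out of these counts, a second Cd47 probe rose by 0.53 with IL-4 (adjusted p = 0.0094). Another Cd44 probe rose by 0.23 with TGF-β (adjusted p = 0.0391). With LPS/IFN-γ the counted Cd44 probe rose by 0.59 (adjusted p = 0.0011). Its other probes differed by 0.20 and 0.07 there and were not called (adjusted p = 0.6304 and 0.4798). Of 3 measured genes around latent TGF-β, Furin, the protease that cleaves the TGF-β precursor, rose by 1.69 ± 0.15 with TGF-β (adjusted p = 8.0e-07) and by 1.29 ± 0.15 with LPS/IFN-γ (adjusted p = 4.3e-06). Nrros, which holds latent TGF-β on microglia, fell by 0.82 ± 0.12 with LPS/IFN-γ (adjusted p = 6.9e-05).

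**Figure D4:**
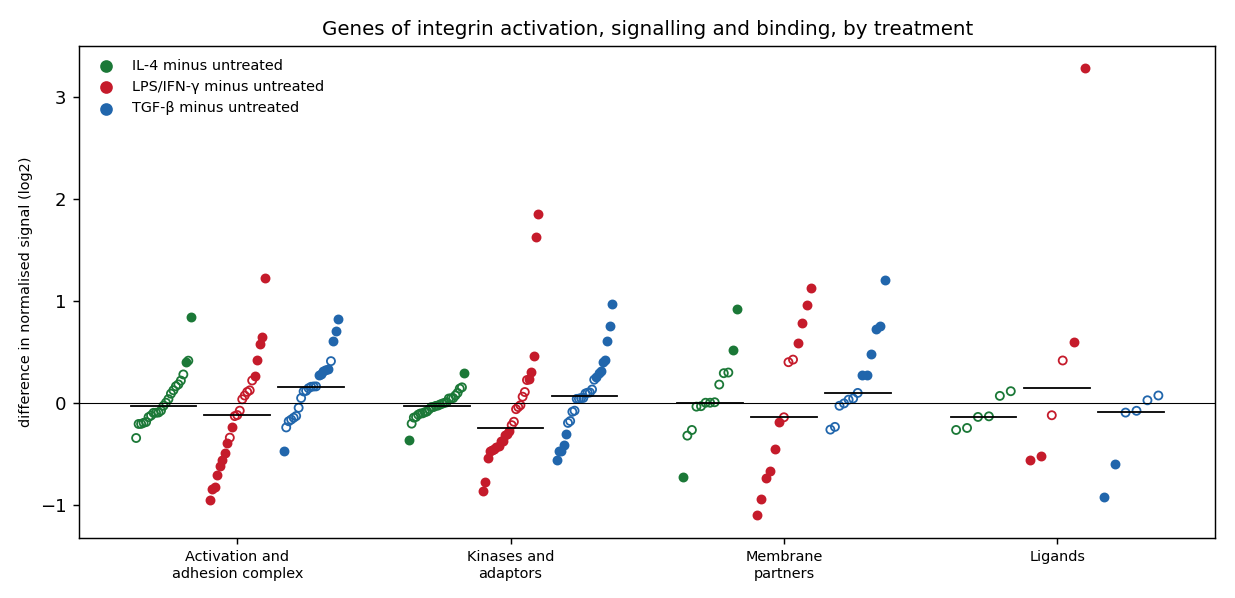
Log2 difference from untreated cells (y axis) of each measured gene in 4 lists of genes that act with integrins (x axis), by treatment, filled where adjusted p is under 0.05, with a black line at the median. With LPS/IFN-γ Icam1 stands highest among the ligands, at 3.29, and all 6 called membrane partners lie above 0 with TGF-β.

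Scaling bears on the directions of these lists. Median scaling alone moved the median of the 15434 probes tested to -0.20 for TGF-β, -0.14 for LPS/IFN-γ and -0.11 for IL-4. With this scaling 26.7% of all probes were called with TGF-β, and 18.6% of those calls were higher. TGF-β then raised 3 and lowered 3 genes of the adhesion complex list. It raised 2 and lowered 6 kinases and adaptors and raised 3 and lowered 1 membrane partners. Cyclic loess gave 7 higher and 7 lower adhesion complex genes for LPS/IFN-γ, where 48.6% of all probes were called, 50.1% of those higher. Under every scaling tried, Itgb5, Itga5 and the first 2 Itgav probes stayed called higher and Itga4 called lower with TGF-β.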

How the data were processed

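Biotin-labelled RNA was read on 15 Illumina mouse bead arrays in 4 groups. The deposited signals are bead intensity values on a linear scale, not background-subtracted and not scaled between arrays, and per the file headers a detection p-value stands beside each. A second deposited table holds the authors' log2 values, made with Partek per the submitters' processing notes, with version and steps not given in the sources used here. Set against the signals, these equal quantile-normalised log2 intensities with a chip effect removed per probe (99.995% of values within 0.001 of that model), its column medians are all 7.14, and it served as an alternative.

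With limma 3.58.1 in R 4.3.3, background was inferred from the detection p (neqc, offset 16), and signals were quantile-normalised and taken to log2. The filter asked for 3 or more arrays with a detection p below 0.01 and kept 15434 probes. Of these, 13310 had 1 gene symbol and 2124 did not. Where no current symbol was found, the symbol of the array annotation was kept. On the array 34885 probes had 1 symbol, 18 several and 10378 none. A model of 4 group means was fitted to all 15 arrays (lmFit, eBayes, two-sided), with Benjamini-Hochberg adjustment over all 15434 probes in each of 6 comparisons. Precision is limited by the number of arrays; the median standard error was 0.113. Errors beside differences are standard errors. Median raw signals were 130.0 to 153.9 per array.

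Where a probe was not above background on any array of a group, its fold is a lower bound, with that group set per array at the lowest signal above background or the probe's own, whichever was higher. A gene was described by its probe with the highest mean. In each list and comparison with untreated cells, up to the 2 highest and 2 lowest called genes were named, and for the 3 members with the widest range of group means, the 3 genes of most similar pattern. Same-numbered arrays of IL-4 and LPS/IFN-γ, which share a chip, deviated together in all 3 pairs (correlations 0.21 to 0.34), so the replicate block is given beside results of that comparison where it changed a call. The members, lists and tests were chosen with earlier results of these data known. Alternatives covered background correction, scaling, the authors' table, the filter, 1 probe per gene, a block for chip or for replicate number, the samples fitted, the variance prior and leaving out each array. With the replicate block, comparisons with untreated cells rest on untreated replicates 1 to 3, since no treated array carries a number from 4 to 6.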

Additional observations from a re-analysis of the deposited data

Results flagged for a closer look

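The second Itgb1 probe read 5.29 on untreated replicate 4, below the other untreated arrays at 5.44 to 5.50, a gap that made up 0.690 of the group's range. It was 1 of 14 groups of untreated values examined in this way, and chance alone marks about 1 in 20. The probe was above background on none of the untreated arrays.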

How the results depend on the processing

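Over 84 combinations of probe and comparison and 27 alternatives, 2214 fits were made: 2130 kept the side of the threshold, 67 lost a call, 17 gained one and 0 reversed. For LPS/IFN-γ against untreated cells, 5 integrin probes were called, 2 higher and 3 lower. There were 3 without background correction, with cyclic loess, without a filter on dim probes or with 1 probe per gene (9 tested). Of all probes tested, 51.3%, 48.6%, 16.4% and 55.7% were called in these fits, against 50.9% in the main fit. Leaving out single arrays gave 3 to 5, where 42.4% to 51.6% of all probes were called. It gave 3 without LPS/IFN-γ replicate 1 or untreated replicate 2, 5 or 6. Without LPS/IFN-γ replicate 1 these were 3 higher and 0 lower: the calls of Itgb5 and both Itgax probes were lost and the second Itgav probe was called higher. For LPS/IFN-γ against IL-4, 5 were called, and 2 with median scaling, where 28.3% of all probes were called in place of 45.1%. Leaving out single arrays gave 4 to 8 (39.9% to 45.6% of all probes), with 8 without LPS/IFN-γ replicate 3 (41.7%). TGF-β against untreated cells gave 7, and 5 to 8 under the alternatives (10.1% to 41.5% of all probes). LPS/IFN-γ against TGF-β gave 11, and 8 to 11 (16.5% to 56.7%). IL-4 against TGF-β gave 7, and 5 to 8 (7.49% to 33.3%). The counts of 5 came with 1 probe per gene, where 9 were tested. IL-4 against untreated cells gave 0 in every alternative (2.4% to 17.5%). The lowest shares came without a filter on dim probes. The cause of these shifts was not tested, save that fewer probes were tested with 1 probe per gene.

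Same-numbered arrays deviated from their group means with correlations of -0.24 to 0.34, over 0.1 in 10 of 18 pairs. All 3 pairs of IL-4 with LPS/IFN-γ were over 0.1 (0.25, 0.34 and 0.21). These pairs also share a chip, so a pairing by number and a shared chip cannot be told apart. In that comparison the block changed 1 integrin call. In no other comparison were all pairs over 0.1, and the numbers were not taken as a pairing. With the replicate number as a block, the calls against untreated cells were 0 for IL-4, 4 for LPS/IFN-γ and 6 for TGF-β. Of all probes, 3.74%, 41.6% and 24.6% were then called, in place of 9.41%, 50.9% and 33.5%. Membrane partners called with TGF-β went from 6 to 3. These fits rest on untreated replicates 1 to 3. The calls were 6 for LPS/IFN-γ against IL-4, 9 for LPS/IFN-γ against TGF-β and 8 for IL-4 against TGF-β. Of all probes, 43.7%, 48.7% and 23.7% were called in these.

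Over all probes, median scaling gave 441 calls in place of 1453 for IL-4, with the shares of higher calls at 18.6% in place of 47.2% for TGF-β, 59.8% in place of 44.4% for LPS/IFN-γ against TGF-β and 62.5% in place of 48.7% for IL-4 against TGF-β. Cyclic loess gave 50.1% in place of 39.1% for LPS/IFN-γ and 61.4% in place of 48.9% for IL-4. Without background correction, differences of dim probes were smaller. Signals near background limit Itgb5 outside TGF-β, Itga4, Itgal and the second Itgax and Itgb1 probes.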
